A study of Jatropha curcas with 22 samples.

Results

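The genes described here are gene models of the oilseed shrub Jatropha curcas picked by words in their deposited description. The words were cyclin, kinesin, mitotic, DNA replication, minichromosome and cell division. A gene model was a member when its description held 1 of those words, in any case, and neither "F-box" nor "histone", which removed 5 gene models. This gave 191 members among 57437 gene models. By description they comprised 52 kinesin motors, 8 kinesin light chains, 7 A- and B-type cyclins, 11 D-type cyclins and 21 other cyclins. A further 16 were cyclin-dependent kinases (CDKs) or their subunits, 6 were CDK inhibitors, 17 were DNA replication and minichromosome maintenance (MCM) proteins, and 8 were mitotic checkpoint and control proteins. The rest were 9 proteins of the CDC48 type, 12 other cell division cycle (CDC) proteins and 20 with an unspecified cell division description. A last 4 were caught by the letters alone, the tetracycline transporters and ribosome recycling factors. The 20 include Jcr4S07454.10, described as a cell division protease FtsH, and Jcr4S00221.60, described as a cell division protease. Among the kinesin motors, Jcr4S03984.60 is described as a kinesin for actin-based chloroplast movement, so not all members are cell cycle genes. Low counts left 170 members to test in leaf and 169 in root, and 19 members had under 100 reads over all libraries together.

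Cell division runs on CDKs, which are active only when bound to a cyclin. D-type cyclins respond to growth signals and start the passage from G1 into DNA synthesis, A-type cyclins act from DNA synthesis onward, and B-type cyclins drive entry into mitosis. MCM proteins form the helicase that is loaded on replication origins by CDC6 and is then activated with CDC45. Spindle kinesins slide and sort microtubules in mitosis, and in plants other kinesins work in the phragmoplast, the microtubule array that builds the new cell wall. Plant growth stops early under water deficit, and young leaves and root tips are the places where most divisions take place.

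The series measured gene expression by RNA sequencing in young leaves of up to 2 cm and in root tips of up to 1 cm, in Cape Verde islands seedlings that were 36 days old at the start. Leaves had a day 0 control, and both organs had a well-watered day 13 control, moderate drought at day 13, a well-watered control pooled over days 49 and 52 (called the late control), severe drought at day 49, and plants watered again and sampled at day 52. The labels name no transgene or mutation. The series text speaks of a pair of accessions, and every sample described here carries the Cape Verde islands label. Plants were pooled, 6 for each treatment at days 0 and 49 and 3 at days 13 and 52. The sample labels place the rewatered plants 3 days after the last day without water, while the treatment text speaks of 7 days. Each of the 11 groups had 2 libraries, 12 libraries from leaf and 10 from root, numbered br1 and br2 in their titles. The labels do not spell out that abbreviation or state whether the libraries of a group came from separate plants, so the p-values speak of the spread of these samples, which may be technical.

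Libraries held 37104762 to 82215677 counted reads, and the members took 0.991% to 1.19% of the reads of the leaf libraries outside severe drought, 0.582% and 0.588% of the severe leaf libraries, and 0.407% to 0.619% of the root libraries. The late root controls detected 38267 and 40952 gene models, against 31702 to 36477 in the other root libraries. Photosystem and antenna genes, 47 in all, summed to 12426 to 22620 CPM (the reads of a gene scaled to a common library total) in leaf and 94.2 to 221 CPM in root. The 7 genes described as Casparian strip, root cap, root hair or root-specific summed to 253 to 333 CPM in leaf and 306 to 463 CPM in root, so that list did not separate the organs. Levels below are CPM, scaled between the libraries of 1 organ with TMM factors, and a value for each library is given in the order of the replicate numbers.

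In severe drought, young leaves held less mRNA of most A-, B- and D-type cyclins, replication proteins and kinesin motors than the watered late controls, as counted by class below. Of the 170 members tested in leaf, 94 fell and 21 rose at an adjusted p under 0.05, where 29.5% of all genes tested fell and 27.6% rose. The median log2 fold change was -0.98 over the members and 0.03 over all genes. For 42 members the level was lower by at least 4 on the log2 scale, and for 31 of them by at least 5. Without severe library 2, 13 members rose. In tissue libraries, fewer dividing cells and less of these mRNAs per cell cannot be told apart. The heat map of the members by library shows the severe leaf columns against all the others.

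**Figure D1:**
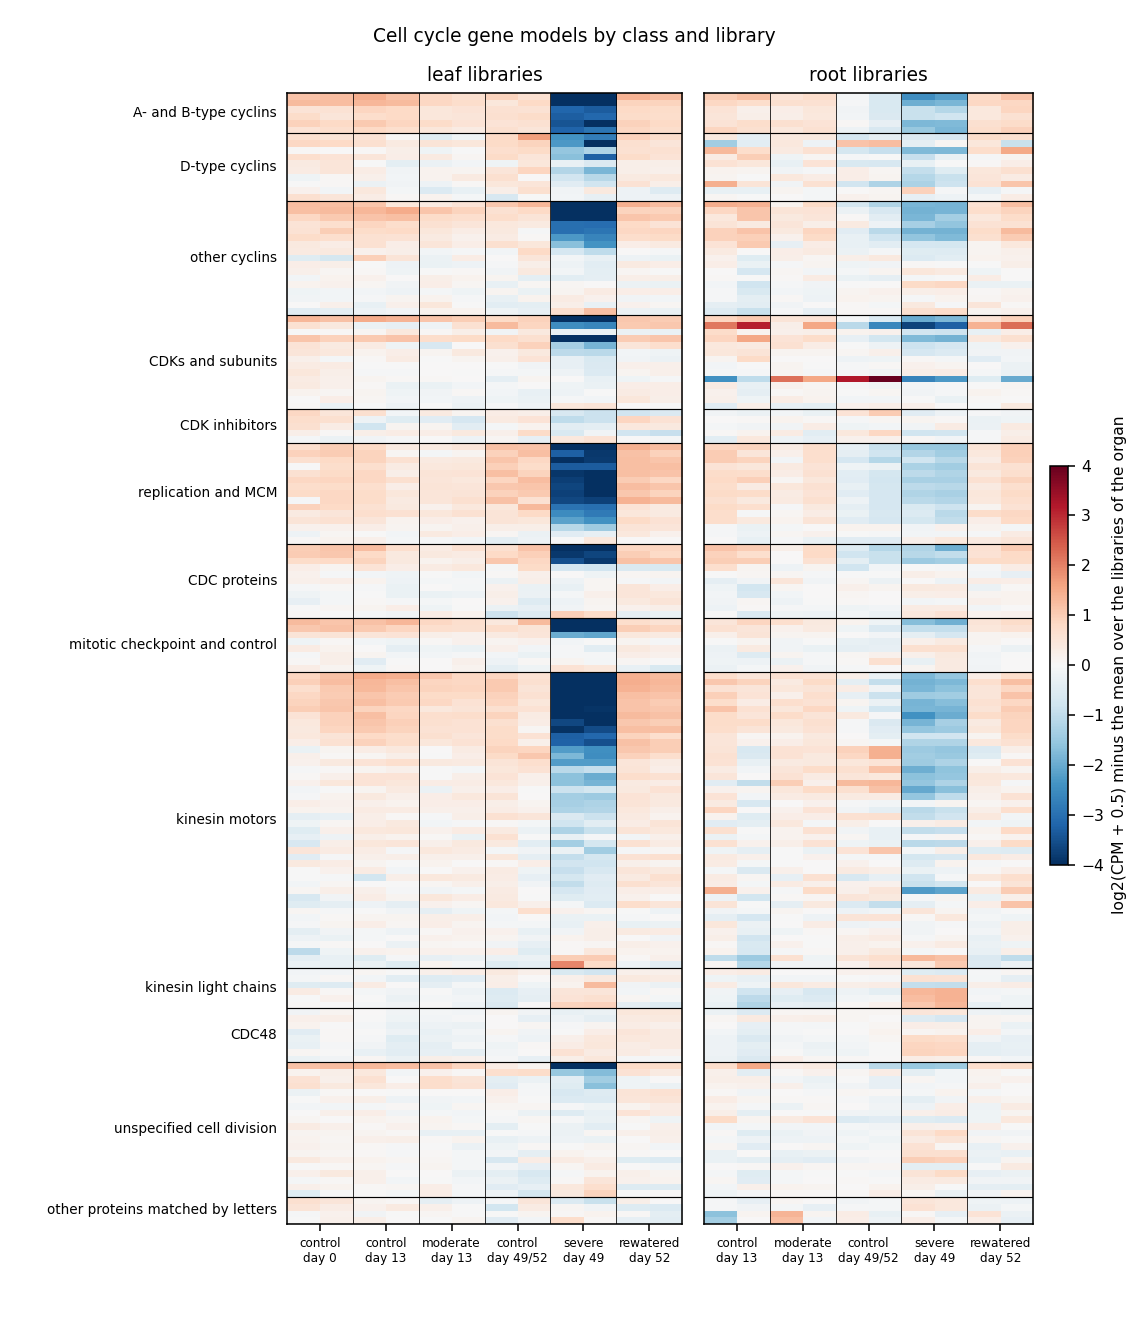
Each row is 1 of the 168 members tested in both organs, grouped by class, and each column is 1 library. Colour gives log2(CPM + 0.5) minus the mean of the row over the libraries of that organ. The pale columns of the leaf controls and of moderate drought stand beside 2 dark blue columns of severe drought in the cyclin, replication and kinesin motor rows. In root the severe drop is smaller, and the late controls are also below day 13 in the A- and B-type cyclin and replication rows.

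All 6 A- and B-type cyclins tested fell in severe leaves, by 3.74 to 6.41 on the log2 scale. The B-type cyclin Jcr4S01200.50 had 149 and 123 CPM in the late leaf controls, 1.69 and 1.52 CPM in severe drought, and 210 and 191 CPM after rewatering. Both severe libraries lay below all 10 other leaf libraries. That was a fall of 6.41 ± 0.20 on the log2 scale (standard error, SE; n = 2 libraries a group) or 85.1-fold, with an adjusted p of 4.4e-09 by edgeR. The A-type cyclin Jcr4S03957.20 went from 71.4 and 64.2 CPM to 4.60 and 5.57 CPM, a 13.3-fold fall. A cyclin B1-type model, Jcr4S20379.20, had 91.1 and 94.5 CPM in the late controls and 5.17 and 2.62 CPM in severe drought. Its level was 23.8-fold lower, between the A-type model and Jcr4S01200.50. The cyclin B models Jcr4S02639.30 and Jcr4S02639.40 lie next to each other by number and moved together over the 22 libraries (Pearson r 0.995), and may be pieces of 1 gene. Both are named here for that feature, after their values were seen.

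Among the CDKs and subunits, 8 of 14 tested fell in severe leaves and 1 rose. Jcr4S00002.100, a cyclin-dependent kinase, had 168 and 187 CPM in the late controls, 1.41 and 1.67 CPM in severe drought and 205 and 198 CPM after rewatering. It was 115-fold lower in severe drought, a fall of 6.85 ± 0.18 on the log2 scale with an adjusted p of 2.3e-09 by edgeR. The groups do not overlap, and no other leaf library came near the severe values. Jcr4S02397.30, described as cell division control 2 (CDC2 is the kinase that drives the cycle in fission yeast), had 120 and 117 CPM against 108 and 83.9 CPM, a log2 fold change of -0.31 ± 0.14 with an adjusted p of 0.09. The CDK regulatory subunit Jcr4S01668.50, a small protein that docks CDKs to their substrates, fell by 0.86 ± 0.17 on the log2 scale, from 110 and 139 CPM to 75.2 and 61.9 CPM. On the deposited length-scaled unit (RPKM, reads scaled by model length and library total), Jcr4S01668.50 was the highest member in the late leaf control, with a mean of 275 over its 2 libraries, ahead of Jcr4S09494.20, described as a cyclin family protein, with 159. Jcr4S00002.100 stood at 123 RPKM there, beside 126 RPKM for Jcr4S02397.30, a near tie in controls between models that stood far apart in severe drought.

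The D-type cyclins fell in 8 of 10 tested models in severe leaves, with a median log2 fold change of -2.20, where 29.5% of all genes fell. Against the day 13 control 6 of the 10 fell, with a median of -1.4, where 26.4% of all genes did. The D3-type cyclin Jcr4S00842.70 had 262 and 281 CPM in the late controls and 30.9 and 8.41 CPM in severe drought, so the severe libraries differed from each other by more than they did for the B-type cyclin. It fell by 3.79 ± 0.47 on the log2 scale with an adjusted p of 9.2e-05 by edgeR. The other D3-type cyclin, Jcr4S00397.60, had 280 and 230 CPM against 51.0 and 16.6 CPM, again with severe library 1 above severe library 2. Rewatered leaves had 241 and 213 CPM of Jcr4S00842.70 and 272 and 237 CPM of Jcr4S00397.60.

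Other cyclins held models that fell steeply and models that did not pass the test. Of 18 tested, 10 fell in severe leaves and 1 rose. Jcr4S00674.90, described only as a cyclin family protein, had 82.8 and 99 CPM in the late leaf controls and 0.901 and 0.629 CPM in severe drought, a fall of 6.89 ± 0.29 on the log2 scale. Jcr4S01512.60, an L-type cyclin of the kind linked to transcription and splicing rather than division, had 77.3 and 60.1 CPM against 77.1 and 90.9 CPM, with overlapping groups and a log2 fold change of 0.29 ± 0.14. Its adjusted p was 0.11, and 0.042 against the day 13 control. Jcr4S00563.80, a cyclin family protein, rose 2.34-fold, from 45.5 and 40.7 CPM to 81.9 and 120 CPM, with an adjusted p of 0.00012 by edgeR. The neighbouring models Jcr4S00062.90 and Jcr4S00062.100 fell alike (r 0.991 over the 22 libraries) and may be 1 gene.

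CDK inhibitors, which block cyclin-CDK complexes, fell in 3 of 5 tested models in severe leaves and rose in 1. The summed level of the class overlapped, with 42.6 and 40.9 CPM in the late controls and 39.8 and 45.5 CPM in severe drought. Jcr4S07565.10 had 25.9 and 19.2 CPM in the late controls and 32.5 and 36.1 CPM in severe drought. It rose 1.52-fold with an adjusted p of 0.0093, and the call was lost without late control library 2 (adjusted p 0.068) or without severe library 2 (adjusted p 0.051). Its neighbour by number, Jcr4S07565.20, is described as a CDK and rose by 0.62 on the log2 scale (r 0.979 with Jcr4S07565.10). The only inhibitor and the only CDK that rose in severe leaves may therefore be parts of 1 gene. Jcr4S04917.30, a CDK inhibitor 3, fell from 7.38 and 8.53 CPM to 2.52 and 2.86 CPM, by 1.56 ± 0.20 on the log2 scale, and against the day 13 control by 0.71 with an adjusted p of 0.013.

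DNA replication was the class with the steepest median against the late control, -5.03 on the log2 scale over 15 tested models. Of these, 13 fell in severe leaves and 1 rose. Against the day 13 control the median of the class was -4.65, and that of the A- and B-type cyclins was steeper, -4.93. The licensing factor Jcr4S00788.130 had 180 and 236 CPM in the late controls, 6.81 and 4.70 CPM in severe drought and 204 and 178 CPM after rewatering. Jcr4S02541.60, also a licensing factor, had 177 and 172 CPM, then 3.97 and 2.95 CPM, then 209 and 184 CPM. Severe libraries of both models lay far below every other leaf library. The falls were 36.1-fold and 50.5-fold, with adjusted p-values of 3.5e-08 and 2.2e-08 by edgeR. The models described as subunits of the helicase itself, chosen for their descriptions after their values were seen, fell by similar amounts: Jcr4S15592.10 (MCM2-like) 41.1-fold, Jcr4S02850.20 (MCM4-like) 32.6-fold and Jcr4S04531.20 (MCM6-like) 36.5-fold.

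Models for loading and activating the helicase also fell. Jcr4S03885.20, a CDC6 model, had 22 and 31.2 CPM in the late leaf controls and 0.393 and 0.195 CPM in severe drought, a 90.3-fold fall. Jcr4S00539.90, a CDC45-like model, had 42.2 and 35.8 CPM against 1.29 and 0.910 CPM, a 35.4-fold fall. In both models the severe libraries lay far below the controls. The CDC class that holds them did not fall as a whole, with sums of 699 and 571 CPM in the late controls and 552 and 640 CPM in severe drought. Against the day 13 control 4 of its 11 tested models fell and 1 rose, with a median log2 fold change of -0.04, where 26.4% and 24.8% of all genes did. The exception among replication models was Jcr4S00042.50, a minichromosome maintenance protein with 11.2 and 12.9 CPM in the late controls and 14.8 and 19.9 CPM in severe drought. It rose 1.44-fold with an adjusted p of 0.023, a call that was lost without late control library 1 (adjusted p 0.11), without severe library 2 (adjusted p 0.21), with no filter (adjusted p 0.055) and against the day 13 control (adjusted p 0.53).

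Of 8 mitotic checkpoint and control proteins tested, 3 fell in severe leaves and 1 rose, where 29.5% and 27.6% of all genes did. Spindle checkpoint proteins hold back chromosome separation until all kinetochores are attached. Jcr4S00960.90, a checkpoint kinase of the BUB1 type, had 19.9 and 17.4 CPM in the late controls and 0.0693 and 0.260 CPM in severe drought. Jcr4S00655.20, a spindle assembly checkpoint protein, had 28.5 and 52.0 CPM against 0.254 and 0.434 CPM. The falls were 110-fold and 115-fold, with the severe libraries close to the detection limit. Jcr4S01295.10, described as MAD2B-like (a protein known in yeast and animals from DNA damage tolerance), moved the other way, from 4.50 and 5.27 CPM to 9.33 and 8.37 CPM, a rise of 0.86 ± 0.19 on the log2 scale.

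Kinesin motors fell in 33 of 45 tested models in severe leaves and rose in 2, with a median log2 fold change of -1.27. The bipolar kinesin Jcr4S04725.20, of the kind that pushes spindle poles apart, had 114 and 94.1 CPM in the late controls, 0.878 and 0.997 CPM in severe drought and 169 and 151 CPM after rewatering. A further bipolar kinesin, Jcr4S05384.20, had 196 and 150 CPM, then 1.66 and 1.71 CPM, then 264 and 239 CPM. Severe leaves were 110-fold and 102-fold lower, with adjusted p-values of 5.1e-09 and 4.7e-09 by edgeR, and no other leaf library overlapped them. Jcr4S04725.20 was 183-fold lower when set against the day 13 control. Another model with this description, Jcr4S00277.40, fell only by 1.69 ± 0.18 on the log2 scale, from 295 and 209 CPM to 80.5 and 75.9 CPM. The chromosome-associated kinesin Jcr4S00284.40 fell 66.5-fold, and its neighbour Jcr4S00284.50, which may belong to the same gene (r 0.981), fell with it. Of the 4 models with a phragmoplast kinesin description tested in leaf, 3 fell, and they are named after their values were seen. Jcr4S00462.40, described as phragmoplast-associated kinesin-related protein 1, fell by 4.37 on the log2 scale, and the phragmoplast orienting kinesin Jcr4S00025.280 fell by 3.97. The models described as protein 2 of that family differed: Jcr4S11014.10 fell by 1.23, from 0.725 and 0.632 CPM to 0.185 and 0.390 CPM, and Jcr4S02256.60 rose from 4.18 and 4.11 CPM to 10.2 and 10.5 CPM, 2.51-fold.

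Some kinesin motors did not pass the test in leaf. Jcr4S01770.20, a kinesin heavy chain model, had 204 and 147 CPM against 164 and 216 CPM, and Jcr4S04536.10, a kinesin motor family protein, had 117 and 116 CPM against 99 and 141 CPM. In both models the groups overlapped, and their log2 fold changes were 0.11 ± 0.19 and 0.04 ± 0.17. The kinesin with the largest rise was Jcr4S03476.40, a heavy chain with 1.39 and 1.60 CPM in the late controls and 9.86 and 4.01 CPM in severe drought. Its rise was 4.64-fold, and severe library 1 stood well above severe library 2.

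**Figure D2:**
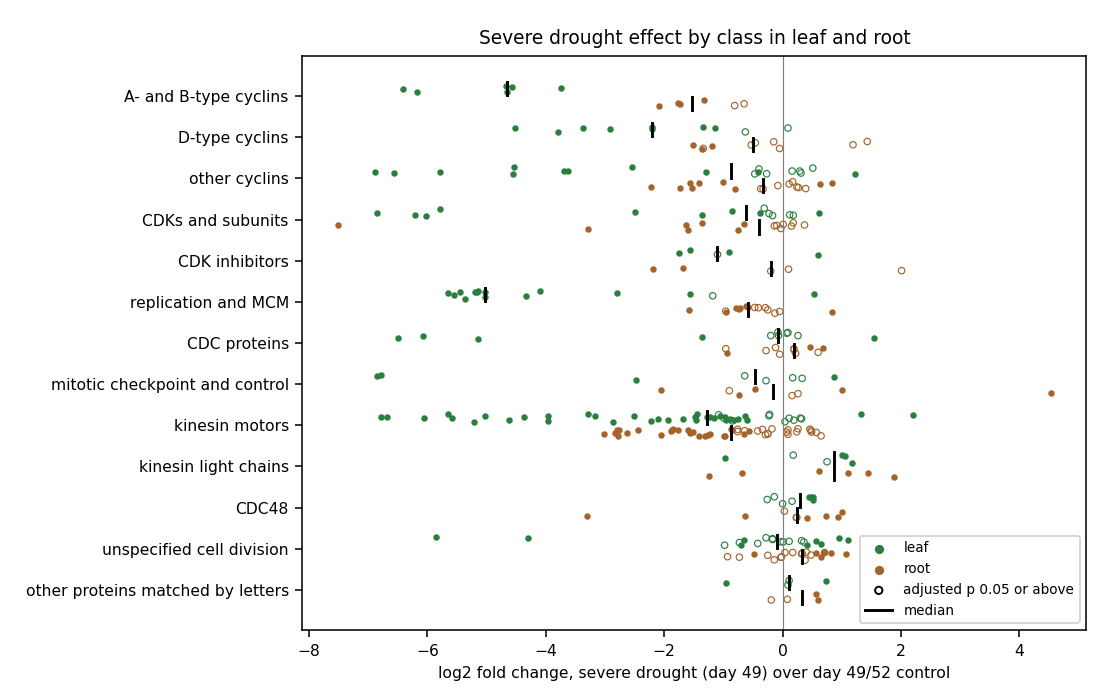
Each point is a member's log2 fold change, severe drought over the late control of the same organ, with members grouped by class on the vertical axis. Leaf is green and root is brown, filled points passed an adjusted p of 0.05, and the black bars are class medians. The leaf medians of the A- and B-type cyclins and of the replication class lie at -4.66 and -5.03, the root medians at -1.53 and -0.59.

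Kinesin light chains, CDC48 and the members with an unspecified cell division description, proteases included, did not fall in most of their leaf models. Their median log2 fold changes were 0.88, 0.30 and -0.10. The summed level of the light chains was nevertheless lower than in the late controls, 364 and 404 CPM in severe drought against 482 and 431 CPM. It overlapped the 375 to 419 CPM of the day 0 and day 13 controls. That of CDC48 overlapped the late controls, 743 and 750 CPM against 800 and 653 CPM. Light chains, which bind cargo in animals, rose in 3 of 6 tested models and fell in 1. Jcr4S01403.40 had 18.3 and 27.6 CPM in the late controls, 50.8 and 52.4 CPM in severe drought and 21.5 and 19 CPM after rewatering, a 2.25-fold rise in severe drought with an adjusted p of 0.00028 by edgeR. The light chain Jcr4S00151.110 went the opposite way, from 339 and 297 CPM to 170 and 151 CPM, 1.98-fold lower. Of 8 CDC48 models, which in other species are unfoldases for ubiquitin-tagged proteins also in cells that do not divide, 4 rose and 0 fell by edgeR, with 4 and 0 at an unadjusted p under 0.05, where 30.2% and 31.8% of all genes were. The CDC48 model Jcr4S02560.50 had 418 and 328 CPM against 356 and 322 CPM, overlapping groups. Among the 20 members with an unspecified cell division description, 5 rose and 4 fell, where 27.6% and 29.5% of all genes did. Against the day 13 control 2 of them rose and 8 fell, with a median of -0.22, where 24.8% and 26.4% of all genes did. Jcr4S05847.20 rose 1.94-fold, from 307 and 338 CPM to 572 and 681 CPM, and with 227 RPKM it was the highest member per length in severe leaves. Jcr4S00139.130, also described only as cell division, fell by 5.85 ± 0.21 on the log2 scale, from 21.5 and 18.9 CPM to 0.416 and 0.282 CPM, and by 6.93 against the day 13 control.

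In rewatered leaves, the same classes were mostly higher than in severe drought. Against severe drought, 101 of 170 members rose and 16 fell, where 29.1% of all genes rose and 30.2% fell. The falls numbered 8 without either rewatered library and 10 without severe library 2. All 6 A- and B-type cyclins rose, by 3.96 to 6.97 on the log2 scale, as did 14 of 15 replication models, 8 of 10 D-type cyclins and 34 of 45 kinesin motors. Jcr4S04725.20, the bipolar kinesin above, rose 170-fold, Jcr4S00002.100 rose 130-fold and Jcr4S01200.50 rose 125-fold. Light chains went the other way in 4 of 6 models. The summed level of the A- and B-type cyclins was 392 and 378 CPM in the late leaf controls, 13.6 and 11.7 CPM in severe drought and 514 and 475 CPM after rewatering, above both late controls and close to the 479 to 554 CPM of the day 0 and day 13 controls. The replication class summed to 1194 and 1216 CPM, then 82.3 and 73.5 CPM, then 1349 and 1215 CPM.

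**Figure D3:**
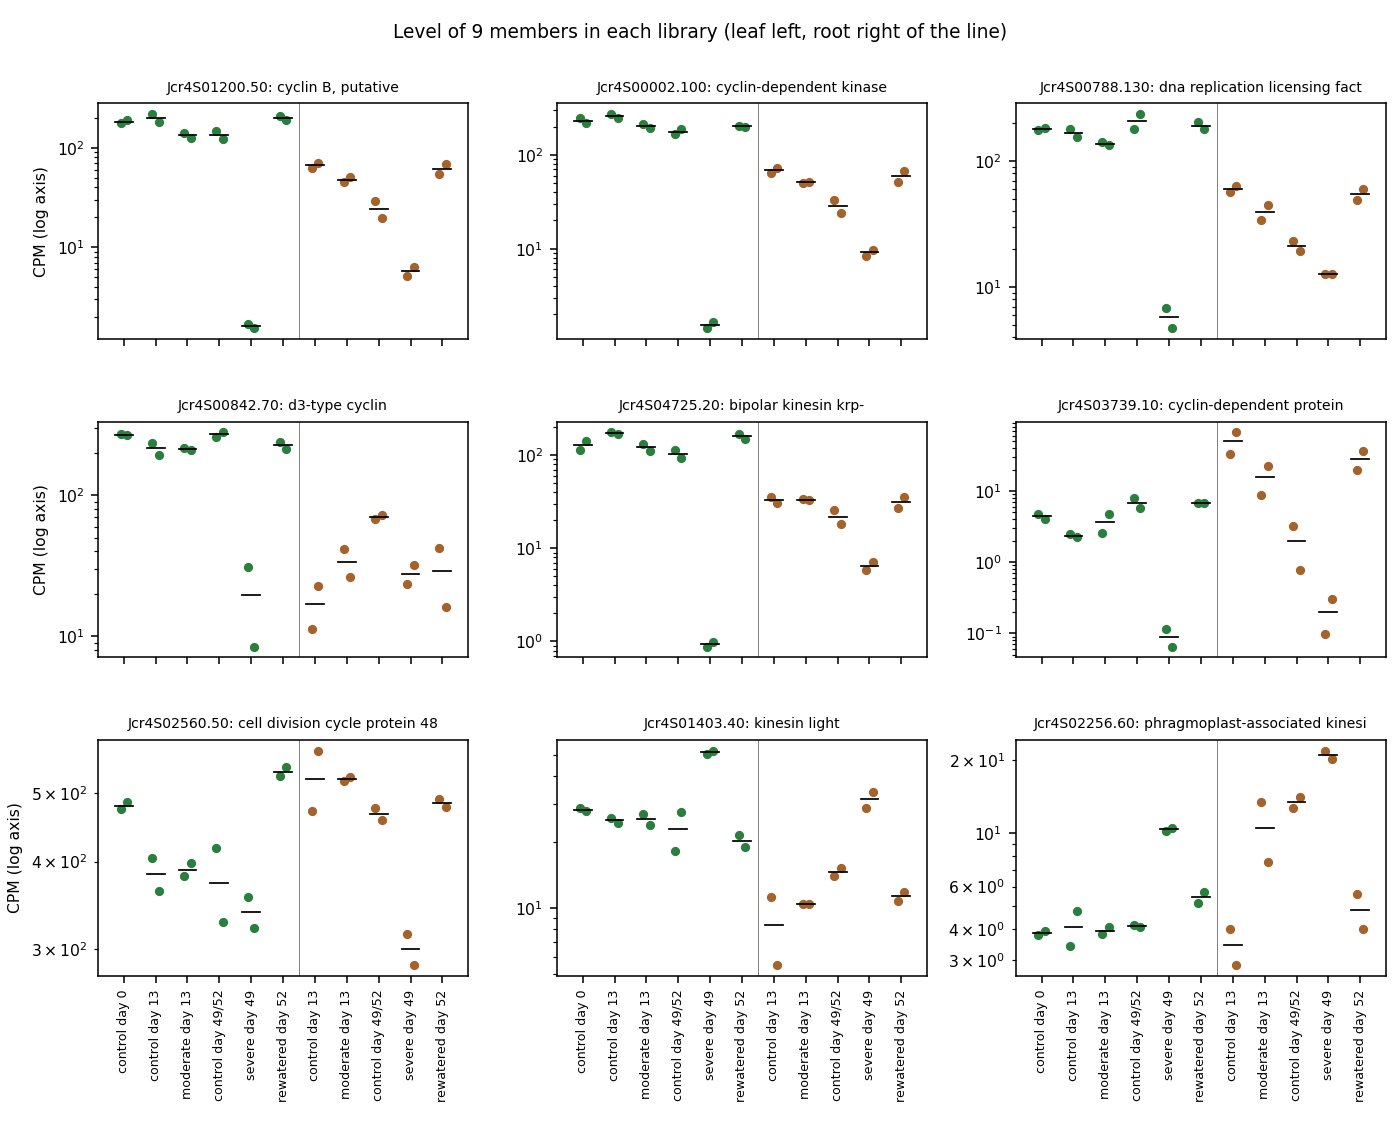
CPM of 9 members in every library on a log axis, with green points for leaf, brown points for root and bars for the mean of the 2 libraries of a group. The upper rows show division genes with a single low leaf group, severe drought, and the lowest row shows the CDC48 model, a light chain and a phragmoplast kinesin that do not follow it.

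Compared directly with the late control, rewatered leaves differed in few members. Of 170 members 1 rose and 3 fell, where 0.772% of all genes rose and 3.79% fell. The member that rose was Jcr4S00043.130, a cell division protein with 209 and 196 CPM against 136 and 115 CPM. The day 13 control had 207 and 181 CPM, and against it the log2 fold change was 0.06 with an adjusted p of 0.84. The ones that fell were the CDK inhibitors Jcr4S00776.20, with 3.61 and 3.19 CPM against 7.62 and 11.4 CPM, and Jcr4S05987.10, with 0.334 and 0.476 CPM against 1.28 and 1.21 CPM, and the cell division control model Jcr4S00798.50. Adjusted p-values were 0.038, 0.011, 0.049 and 0.045 by edgeR, in that order. DESeq2 gave 22 rises and 4 falls. The counts rested on the libraries: without late control library 1 they were 29 rises and 11 falls, and without late control library 2 or either rewatered library they were 0 and 0, where at an unadjusted p under 0.05 the full set gave 41 and 8. At that unadjusted threshold 9.59% of all genes were higher and 15.5% lower. Against the day 13 control, 12 members rose and 7 fell, where 4.22% and 6.18% of all genes did.

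No leaf member passed the test in moderate drought at day 13. By edgeR 0 of 170 rose and 0 fell, where 0.00431% and 0% of all genes did, and at an unadjusted p under 0.05 the numbers were 1 and 20, where 4.31% and 4.34% of all genes were. DESeq2 called 0 rises and 2 falls, and limma on the RPKM values called 0 in either direction. Jcr4S01200.50 had 219 and 182 CPM in the day 13 control and 142 and 125 CPM in moderate drought, lower in both libraries without passing the test. Jcr4S00788.130 had 179 and 155 CPM against 141 and 133 CPM, and Jcr4S00842.70 had 237 and 195 CPM against 219 and 211 CPM. The groups of Jcr4S00788.130 do not overlap, while those of Jcr4S00842.70 do.

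The watered leaf controls of different age differed in few members. From day 0 to day 13, 1 member rose and 1 fell, where 1.31% and 0.517% of all genes did. Jcr4S05589.20, a cyclin family protein, rose from 18.1 and 15.3 CPM to 49.1 and 36.6 CPM, and the CDK inhibitor Jcr4S04917.30 fell from 9.51 and 9.15 CPM to 4.90 and 3.90 CPM. Their adjusted p-values of 0.019 and 0.026 became 0.17 and 0.15 without day 0 library 2 and 0.16 and 0.22 without day 0 library 1. Without day 13 library 1 that of Jcr4S05589.20 was 0.063, and without day 13 library 2 that of Jcr4S04917.30 was 0.15. From day 13 to the late control 1 member fell, Jcr4S00139.130, from 43.8 and 41.6 CPM to 21.5 and 18.9 CPM, and by edgeR 0 rose, with 16 at an unadjusted p under 0.05 (10.1% of all genes), 7 by DESeq2 and 2 by limma, where 0.250% and 0.263% of all genes rose and fell. The fall of Jcr4S00139.130 had an adjusted p of 0.029, and of 0.072 without day 13 library 2 and 0.060 without late control library 2. Measured against the day 13 control, severe leaves had 18 rises and 97 falls among the members, with 24.8% and 26.4% for all genes.

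In root tips, severe drought was compared with the late root controls. Of 169 tested, 64 fell and 22 rose, where 25.6% of all genes fell and 19.5% rose. The median log2 fold change was -0.29 over the members and -0.04 over all genes. A fall of at least 2 on the log2 scale was seen in 15 members and of at least 4 in 1. The counts moved with single libraries: falls numbered 36 without severe library 1, 41 without severe library 2 and 41 without late control library 1, and rises numbered 12 without severe library 2 and 8 without either late control library. Limma on the RPKM values gave 40 falls. Against the day 13 control, severe roots had 77 falls and 31 rises, with a median of -0.42, where 28.4% and 26.1% of all genes fell and rose. Of the photosystem and antenna genes, which mark green tissue, 13 of the 37 tested in root rose in severe drought against the late control and 2 fell, with a median of 0.86. They summed to 163 to 203 CPM in severe roots, with 2 of the 47 genes at 0 reads, and to 96 to 132 CPM in the late controls, with 4 at 0. Their part in the results for root was not tested.

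Root A- and B-type cyclins fell in 4 of 6 tested models, with a median of -1.53 on the log2 scale, and in all 6 against the day 13 control, with a median of -2.51. Jcr4S01200.50 had 29.1 and 19.8 CPM in the late root controls and 5.16 and 6.29 CPM in severe drought, a fall of 2.09 ± 0.23 on the log2 scale or 4.27-fold, with an adjusted p of 0.00044 by edgeR. The day 13 root controls had 62.5 and 71.0 CPM of it, well above the late controls, and against them the fall was 11.7-fold. Jcr4S00002.100 had 64.9 and 73.1 CPM in the day 13 controls, 33.0 and 23.8 CPM in the late controls and 8.43 and 9.79 CPM in severe drought, 7.57-fold below day 13 and 3.12-fold below the late controls. Of the root CDKs and subunits, 7 of 14 fell. The D3-type cyclin Jcr4S00842.70 had its highest root levels in the late controls, 67.9 and 72.6 CPM, with 23.3 and 32.3 CPM in severe drought and 11.3 and 22.7 CPM in the day 13 controls, and its severe contrast missed the threshold with an adjusted p of 0.057. Of the root D-type cyclins 3 of 10 fell, where 25.6% of all genes did. Among them was Jcr4S02039.10, described as cyclin delta-1, from 54.6 and 48.7 CPM to 20.6 and 24.4 CPM. Against the day 13 control 6 of the 10 fell and 1 rose, with a median of -1.15, where 28.4% and 26.1% of all genes did.

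Replication models in root fell in 7 of 15 cases and rose in 1, with a median of -0.59. From day 13 to severe drought 12 of 15 fell and 0 rose by edgeR, with 1 rise at an unadjusted p under 0.05 (29.0% of all genes), and the median was -1.80. Jcr4S00788.130 had 23.3 and 19.3 CPM in the late root controls and 12.8 and 12.7 CPM in severe drought, 1.67-fold lower with an adjusted p of 0.014. The day 13 controls had 56.4 and 63.4 CPM, and the fall of 1.49 ± 0.19 on the log2 scale from them to the late controls was larger than that from the late controls to severe drought. From day 13 to severe drought Jcr4S00788.130 fell 4.70-fold. Jcr4S03885.20, the CDC6 model, had 3.01 and 1.79 CPM against 1.67 and 0.798 CPM, without passing the test (adjusted p 0.09). It fell 8.25-fold from the day 13 control, with an adjusted p of 0.00075. The exception was again Jcr4S00042.50, which rose from 4.64 and 4.56 CPM to 7.60 and 8.92 CPM, an adjusted p of 0.0089 that became 0.057 without late control library 1, 0.064 without library 2, 0.063 without severe library 2 and 0.060 against day 13.

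Kinesin motors, the largest class, fell in 25 of 44 root models, and in 25 with 4 rises against the day 13 control. Jcr4S00326.10, a kinesin heavy chain model, had 15.7 and 23.2 CPM in the late root controls and 2.04 and 2.77 CPM in severe drought, and Jcr4S05687.60, of the same description, had 21.3 and 30.7 CPM against 3.17 and 4.11 CPM. Neither pair of groups overlaps. They fell by 3.01 ± 0.25 and 2.83 ± 0.26 on the log2 scale, with adjusted p-values of 0.00017 and 0.00023 by edgeR, and by 2.19 and 2.03 against the day 13 control. In leaf the same models stood at 0.729 to 1.97 CPM in the late controls. Jcr4S01499.20, also a heavy chain model, fell from 49.8 and 51.5 CPM to 6.59 and 8.38 CPM, but its day 13 controls had 14.8 and 10.1 CPM, and against them the log2 fold change was -0.74 with an adjusted p of 0.077. The bipolar kinesin Jcr4S04725.20 fell 3.40-fold in root, from 25.7 and 18.2 CPM to 5.88 and 7.06 CPM, and 5.08-fold against the day 13 control.

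Light chains and CDC48 in root rose in more models than they fell, while their summed levels were lower in severe drought. Of 6 light chains 4 rose and 2 fell, and the class summed to 347 and 344 CPM against 485 and 492 CPM in the late controls. Jcr4S01403.40 rose from 14 and 15.3 CPM to 28.8 and 34.1 CPM, a call lost without either late control library (adjusted p 0.099 and 0.074) or without severe library 2 (adjusted p 0.091), and against the day 13 control its rise was 3.76-fold with an adjusted p of 0.0012. Jcr4S00507.20 rose from 11.3 and 11.6 CPM to 29.8 and 33.1 CPM, and its neighbour Jcr4S00507.30 (r 0.979) may be a piece of it. Jcr4S00089.90, a light chain with much more mRNA in root than in leaf, fell from 189 and 197 CPM to 82.3 and 79.9 CPM. The CDC48 class summed to 723 and 680 CPM against 780 and 764 CPM. Of its 9 models 4 rose and 2 fell, the latter including Jcr4S02560.50, from 476 and 458 CPM to 316 and 285 CPM, a call lost when any 1 of those 4 libraries was left out (adjusted p 0.057 to 0.086).

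In a few root models the size of the shift depended strongly on which control was used. Jcr4S01358.80, described as a cell division protein kinase, had 0.335 and 1.70 CPM in the day 13 root controls, 20.1 and 12.5 CPM in moderate drought, 40.7 and 69.4 CPM in the late controls and 0.197 and 0.399 CPM in severe drought. The late controls held 73.4% of its summed level over all groups. Its severe contrast, -7.51 ± 1.06, was the largest fall of any member in root, and against the day 13 control it was -1.70 with an adjusted p of 0.19. Jcr4S03739.10, described as a cyclin-dependent protein, had its high levels elsewhere: 32.9 and 66.7 CPM at day 13, 3.21 and 0.774 CPM in the late controls, 0.0984 and 0.305 CPM in severe drought and 19.7 and 36.0 CPM after rewatering. Its fall of 3.29 ± 0.97 in severe drought from the late controls lost its call without late control library 1 or either severe library (adjusted p 0.074 to 0.18). From the day 13 controls it fell by 7.92 ± 1.03 with an adjusted p of 0.00057. Jcr4S20175.30, a mitotic phosphoprotein model, rose in the test by 4.53 on the log2 scale, from 0.0185 and 0 CPM to 0.246 and 0.329 CPM. The day 13 root controls had 0.130 and 0.195 CPM of it, and against them the change was 0.83 with an adjusted p of 0.28.

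**Figure D4:**
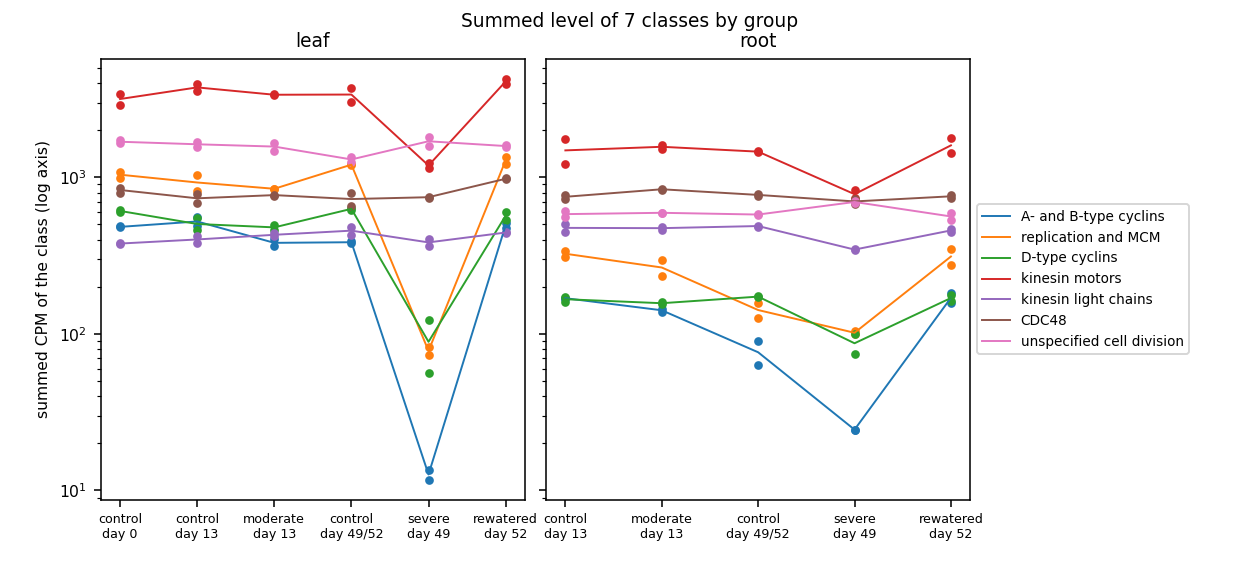
Summed CPM of 7 classes in each library on a log axis, leaf on the left and root on the right, with lines joining the group means. A- and B-type cyclins and the replication class drop in severe leaves and return after rewatering, and in root their late controls already lie below the day 13 controls.

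The root controls changed between day 13 and the late sampling. Of 169 members 42 fell and 16 rose, where 15.3% and 15.6% of all genes did. A- and B-type cyclins fell in 5 of 6 models and the replication class in 11 of 15, with a median of -1.12, while kinesin motors rose in 9 and fell in 5 of 44. The summed level of the A- and B-type cyclins was 168 and 170 CPM at day 13 and 89.4 and 63.2 CPM in the late controls, and that of the replication class 338 and 312 CPM against 157 and 127 CPM. Among the kinesins, Jcr4S01499.20 rose from 14.8 and 10.1 CPM to 49.8 and 51.5 CPM. These counts moved with single libraries: 4 members rose and 13 fell without late control library 2, and 8 and 32 without late control library 1. Without day 13 library 1, 37 rose and 43 fell, and without day 13 library 2, 6 rose and 41 fell. Photosystem and antenna genes summed to 168 to 221 CPM at day 13 and 96 to 132 CPM in the late controls, with 6 of 37 lower and 3 higher. Plant age, sampling time and library cannot be told apart in this contrast.

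After rewatering, 77 of 169 root members rose against severe drought and 25 fell, where 27.4% and 22% of all genes did. All 6 A- and B-type cyclins, 12 of 15 replication models, 9 of 17 other cyclins and 26 of 44 kinesin motors rose. Jcr4S01200.50 reached 54.0 and 69.0 CPM, 10.7-fold above severe drought, and Jcr4S04262.20, a D-type cyclin, went from 0.566 and 0.540 CPM to 5.5 and 9.91 CPM, 13.9-fold. Light chains fell in 4 of 6 and CDC48 models in 4 of 9. Photosystem and antenna genes went the opposite way from the cyclins in this contrast, with 20 of 37 lower and 2 higher, a median of -1.25 and a sum of 94.2 to 98.2 CPM after rewatering, with 1 of the 47 genes at 0 reads.

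Many division genes in rewatered root were also above the late control. Against the late control 41 members rose and 6 fell, where 8.53% and 8.44% of all genes did. The rises took in all 6 A- and B-type cyclins, with a median of 1.15, and 13 of 15 replication models, with a median of 1.12. Jcr4S00788.130 had 49.4 and 60.2 CPM after rewatering, 23.3 and 19.3 CPM in the late controls and 56.4 and 63.4 CPM at day 13. Jcr4S00674.90, a cyclin family protein, had 19.5 and 29.8 CPM against 7.56 and 5.20 CPM late and 35.1 and 34.1 CPM at day 13. Against the day 13 control, edgeR called 0 rises and 0 falls, with 9 and 5 at an unadjusted p under 0.05, where 0.0241% and 0.0160% of all genes were called and 11.2% and 9.36% passed the unadjusted threshold. The calls against the late control rested on few libraries: without late control library 2 there were 0 rises and 0 falls, without rewatered library 2 there were 3 and 0, without late control library 1 there were 22 and 2, and without rewatered library 1 there were 36 and 4. In moderate drought at day 13, 1 root member rose and 0 fell by edgeR, where 1.98% and 0.754% of all genes did, with 11 and 10 at an unadjusted p under 0.05, 5 and 4 by DESeq2 and 1 and 0 by limma. Of all genes 12.8% were higher and 11.1% lower at the unadjusted threshold, larger shares than those of the members. The member that rose was Jcr4S02256.60, the phragmoplast-associated kinesin, from 4.03 and 2.85 CPM to 13.4 and 7.58 CPM. Its adjusted p of 0.045 became 0.18 without day 13 control library 2 and 0.23 without moderate library 1. Without day 13 control library 1, 21 root members rose and 7 fell.

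Watered leaves held more of most members than watered roots at day 13. In a single fit over all 22 libraries, 107 of 172 members were higher in leaf and 19 lower, where 29.0% and 29.7% of all genes were. The median log2 difference was 1.06 over the members. All 6 A- and B-type cyclins, 14 of 15 replication models and 31 of 45 kinesin motors were higher in leaf. D-type cyclins divided the organs, with 6 higher in leaf and 4 higher in root. Jcr4S10365.10, a D-type cyclin, was 17.5-fold higher in leaf, with 26.9 and 20.0 CPM against 1.35 and 1.32 CPM over the joint scaling of all libraries. The kinesin heavy chain models Jcr4S00326.10 and Jcr4S05687.60 were 11.7-fold and 11.4-fold higher in root, and the light chain Jcr4S00089.90 was 4.29-fold higher in root.

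The effect of severe drought differed between the organs in 82 members, tested as the leaf log2 fold change minus the root one in the same fit. In 74 the leaf effect was lower and in 8 higher, where 18.6% and 17.1% of all genes were. The difference was lower in all 6 A- and B-type cyclins, by a median of 3.95 on the log2 scale, in 13 of 15 replication models, by a median of 4.27, and in 17 of 45 kinesin motors, with 2 higher. With each organ against its day 13 control those medians were -3.29 for the cyclins and -2.63 for the replication models. For Jcr4S00002.100 it was -5.23 ± 0.26 with an adjusted p of 1.3e-08 by edgeR, beside a leaf effect of -6.85 and a root effect of -1.64 in the fits of each organ, and with the day 13 controls it was -4.50 ± 0.26. For Jcr4S00277.40, the bipolar kinesin with the smaller leaf fall, it was -0.11 ± 0.32. Of the 45 photosystem and antenna genes tested, the leaf effect was lower in 19 and higher in 1, with a median difference of -1.42, and their part in this comparison was not tested. With the day 13 controls, 76 members were lower and 5 higher, where 16.4% and 15.4% of all genes were.

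Of the 168 members tested in both organs, 92 fell in leaf and 63 in root, and 57 fell in both, which is 62% of the leaf list and 90.5% of the root list. Over all 22218 genes tested in both organs the shares were 40.4% and 51%. In 49 of those 57 the fall was larger in leaf. The lists of members that rose shared 10, which is 47.6% of the 21 in leaf and 45.5% of the 22 in root, beside 39% and 51.5% over all genes. Opposite calls were made for the ribosome recycling factor Jcr4S01162.70, lower in leaf and higher in root, and for the cell division protein Jcr4S00166.60, higher in leaf and lower in root. The root call of Jcr4S00166.60 was lost when any 1 of the severe or late root libraries was left out, with adjusted p-values of 0.12 to 0.16, and its leaf call was lost against the day 13 control, with an adjusted p of 0.25. Pearson's r between the leaf and root effects across these members was 0.518, a description over genes that are not independent and that share the same libraries within an organ.

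**Figure D5:**
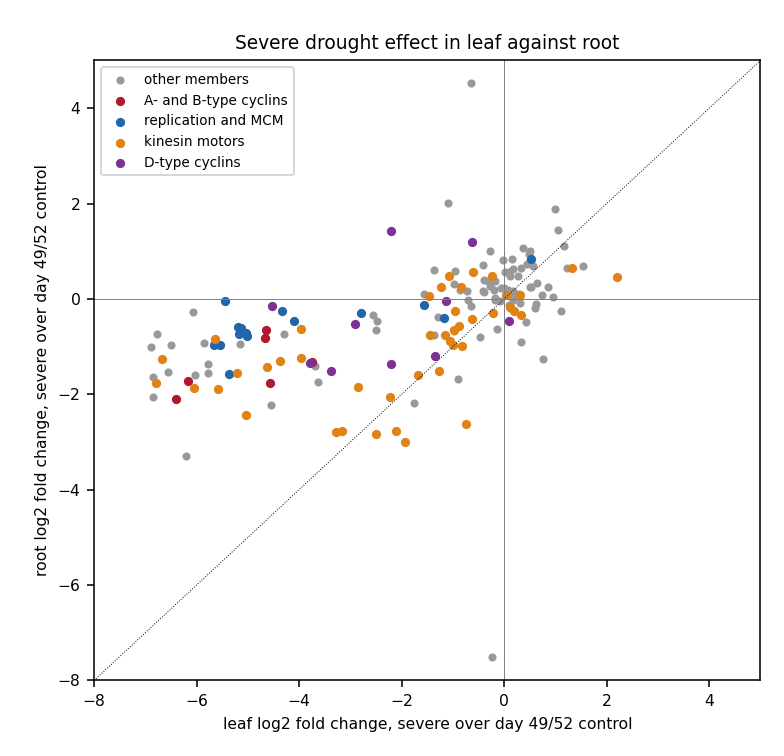
Each point is 1 of the 168 members, with its leaf log2 fold change in severe drought on the horizontal axis and its root one on the vertical axis, coloured by class. The dotted line marks equal effects. The A- and B-type cyclins lie far to the left, between -3.74 and -6.41 in leaf, with most but not all of the replication models, while on the root axis the cyclins lie between -0.65 and -2.09.

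Other genes of the division machinery, listed by description, are given as counts only, beside 29.5% of all genes falling and 27.6% rising in severe leaves and 25.6% and 19.5% in severe roots. In severe leaves 17 of 32 DNA polymerases and replication factors fell and 5 rose, 19 of 31 chromosome structure proteins fell and 4 rose, and 25 of 40 tubulins and microtubule proteins fell and 4 rose. Of 13 E2F and retinoblastoma proteins, which control the genes of DNA synthesis, 8 fell and 1 rose, with a median of -1.06. The 1 gene described as an aurora or polo kinase fell by 6.71 on the log2 scale in leaf and by 1.61 in root. Of 5 anaphase promoting complex proteins 2 fell. In severe roots the polymerases and replication factors fell in 2 and rose in 7 of 33, the chromosome structure proteins fell in 6 and rose in 3 of 28, and the tubulins and microtubule proteins fell in 18 and rose in 2 of 41. E2F and retinoblastoma proteins were divided in root, 3 up and 3 down of 12, and 1 of 5 anaphase promoting complex proteins rose. These root counts are against the late controls, which already differed from day 13. From day 13 to the late root controls, 8 polymerases and replication factors fell and 3 rose. Chromosome structure proteins fell in 9 and rose in 7, tubulins and microtubule proteins in 15 and 4, and E2F and retinoblastoma proteins in 5 and 0. Of all genes, 15.3% fell and 15.6% rose there.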

How the data were processed

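The TruSeq v2 kit, which does not keep the strand, was used on 400 ng of RNA, and the libraries were sequenced as single 50 bp reads on a HiSeq 2000, per the labels' protocols. For aligner, counter, genome build and annotation, a name was not given in the sources used here. Deposited by the authors were read counts per gene model, with a description of each model, and RPKM values, whose lowest value is 1 also where the count is 0. Overlapping genes, antisense genes and near-identical copies cannot be told apart in such counts.

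Counts of all gene models were fitted with edgeR 4.0.16 in R 4.3.3 (TMM factors, filterByExpr, robust glmQLFit), in 1 fit of the 12 leaf libraries (23200 genes), 1 of the 10 root libraries (24924 genes) and, between organs, 1 of all 22 libraries (25939 genes). Tests were two-sided quasi-likelihood F tests with Benjamini-Hochberg adjustment over all genes of a fit, called at 0.05, and the SE is the log2 fold change over the square root of F. Deposited RPKM served to rank members by level per length and for limma. On counts simulated from the means and depths of each organ, 41% of 2-fold and 100% of 4-fold changes were called in severe leaves, and 8% and 88% in severe roots. The simulation changed only a small set of well-counted genes, all upward, with 1 fixed dispersion for each organ. Far more genes were called in the data, which loosens the adjusted threshold, so these shares do not measure the power of the real contrasts. DESeq2 1.42.0, limma 3.58.1 on log2(RPKM + 1) and the other settings are described in the closing section.

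The members and the lists were chosen with earlier results of these data known. Named members are, in each class, the 3 with the highest mean CPM in an organ. In each comparison, up to 4 called members each way with the largest change and at least 1 CPM in the higher group were added, as were members called against most of their class in severe drought. Other members named are chosen after their values were seen. Sequences and positions of the gene models were not analysed here.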

Additional observations from a re-analysis of the deposited data

Results flagged for a closer look

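The effect of severe drought differed between leaf and root, tested as the leaf log2 fold change minus the root one over all 22 libraries with edgeR, in 74 members where the leaf effect was lower and 8 where it was higher. Of the members named, the checkpoint kinase Jcr4S00960.90 had a difference of -6.08, the cyclin family protein Jcr4S00674.90 of -5.90, the CDC protein Jcr4S00775.30 of -5.82 and the CDC6 model Jcr4S03885.20 of -5.55. With each organ against its day 13 control these were -5.42, -3.08, -3.63 and -3.55, each still with an adjusted p under 0.05. The difference was positive for the kinase Jcr4S01358.80, at 7.27, and it was 5.5 with an adjusted p of 0.40 without leaf severe library 1 and 0.59 with an adjusted p of 0.85 against the day 13 controls. It was 1.98 for the light chain Jcr4S00089.90, which fell in root, 1.85 for the kinesin Jcr4S01814.20, whose root fall of 2.63 exceeded its leaf fall of 0.75, and 1.74 for the kinesin heavy chain Jcr4S03476.40, which rose in leaf. Against the day 13 controls these were 1.69, 2.55 and 0.89, the last with an adjusted p of 0.27.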

How the results depend on the processing

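Results for named members numbered 92, and 55 of them kept their direction and their side of the threshold under every setting tried. Against the day 13 control these changed sign: Jcr4S00045.80 in severe root (0.49), and in rewatered root Jcr4S03739.10 (-0.84), Jcr4S00674.90 (-0.49), Jcr4S01448.50 (-0.17), Jcr4S01358.80 (0.73), Jcr4S05987.10 (0.22) and Jcr4S02256.60 (0.47). The cause was not tested.

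Counts of members called moved by over 1.5 times as follows. For moderate leaf, falls were 2 with no filter and 2 with DESeq2. For rewatered against late control leaf, rises were 2 with RLE factors, 17 with no filter, 5 at 1 CPM or more, 0 with the replicate block, 22 with DESeq2, 3 with limma and 12 against day 13, and falls were 6 with no filter, 1 with the block, 1 with limma and 7 against day 13. For leaf controls, day 13 against day 0 gave 4 rises and 3 falls with no filter. Late against day 13 gave 10, 1, 7 and 2 rises with no filter, 1 CPM, DESeq2 and limma, and 2, 9, 3, 12, 5 and 0 falls with RLE, no filter, 1 CPM, DESeq2, limma and 1 fit over all libraries. For moderate root, rises were 7 with no filter, 5 with DESeq2 and 6 with 1 fit, and falls 6, 4 and 6. For severe root, limma gave 40 falls. For rewatered against late control root, rises were 0 against day 13, and falls were 10 with no filter, 12 with DESeq2, 0 against day 13 and 12 with 1 fit. For the organ difference, DESeq2 gave 13 higher and the day 13 controls 5.

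Leaving out 1 library each gave these ranges. Leaf day 13 against day 0 had 0 to 1 rises and 0 to 1 falls, leaf late against day 13 had 0 to 3 and 0 to 3, and rewatered against late control leaf had 0 to 29 and 0 to 11. Rewatered against severe leaf had 8 to 15 falls and severe leaf 13 to 20 rises. Root late against day 13 had 4 to 37 rises and 13 to 43 falls, moderate root 0 to 21 and 0 to 7, rewatered against late control root 0 to 36 and 0 to 4, and severe root 8 to 18 and 36 to 55. A group left with 1 library is assumed to vary like the other groups.

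Libraries of 1 number did not deviate together (Pearson r of -0.238 to 0.273 over 15 pairs of leaf groups and -0.231 to 0.201 over 10 of root groups), so the numbers are not taken to pair them. With the replicate block, severe leaf had 21 rises and 94 falls and severe root 21 and 59, and 88 of the 92 named results kept their call. With 2 libraries a group, changes near 2-fold in root were seldom called in simulated data, where few genes were changed.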

Other observations

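Further changes in severe drought were seen in the following members. Jcr4S00077.170, described as a cell division control protein, rose in leaf from 18.1 and 23.1 CPM to 64.2 and 55.1 CPM, 2.90-fold, and in root from 26.4 and 24.0 CPM to 38.4 and 42.9 CPM, with adjusted p-values of 1.3e-05 and 0.020 by edgeR. Against the day 13 controls it rose 1.94-fold in leaf and 1.72-fold in root. Jcr4S00775.30, a CDC protein, fell in leaf from 17.8 and 20.1 CPM to 0.231 and 0.325 CPM, while in root it had 1.66 and 1.5 CPM against 1.23 and 1.38 CPM in severe drought and, against the day 13 root control, was 4.58-fold lower with an adjusted p of 0.00083. Jcr4S01214.80, a cyclin family protein, fell in leaf from 87.6 and 100 CPM to 1.02 and 0.976 CPM, and had 106 and 107 CPM after rewatering. The CDK inhibitor Jcr4S00776.20 fell in root from 4.10 and 5.66 CPM to 1.48 and 1.57 CPM, by 1.68 on the log2 scale, and by 1.06 against the day 13 control.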
